A study of Mus musculus with 4 samples.

Results

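Resident macrophage identity and the clearance of dying cells were followed through 10 genes in RNA of mouse pancreatic islets. They are Adgre1, Cd68, Mpeg1 and Lyz2, which mark macrophages, the fractalkine receptor Cx3cr1 with its ligand Cx3cl1, the receptor kinases Mertk and Axl, and their ligands Gas6 and Pros1. The genes were taken by name, with earlier results of these data known. All 10 were found among 55421 gene identifiers and had enough counts to be tested, as did 21563 genes in all. The material is labelled as macrophage of islet from wild-type (WT) C57BL/6 mice, an inbred strain. The mice were fed normal chow (NCD, 2 libraries) or a high-fat diet (HFD, 2 libraries), a feed that makes mice obese. Neither diet group carried an allele or agent beyond the feed, as far as the labels say, and the sources used here do not give age, sex, feeding time or the number of animals behind a library. No label states that same-diet libraries are from different animals, so each p-value measures only the spread between libraries, possibly technical.

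Macrophages that live in islets take up beta cell granules and dead cells, and carry the surface protein F4/80, encoded by Adgre1. Cells that die expose the lipid phosphatidylserine. The secreted proteins GAS6 and protein S, from Gas6 and Pros1, bind this lipid and bridge it to the kinases TYRO3, AXL and MERTK (the TAM receptors) on a phagocyte, which then engulfs the corpse, a process called efferocytosis. Fractalkine, from Cx3cl1, is a membrane-anchored chemokine of endothelial, epithelial and nerve cells, and CX3CR1 is its receptor on macrophages, monocytes and some lymphocytes.

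Libraries held between 56740720 and 64490097 counts. The label was checked against defining genes: Csf1r, the receptor that macrophages need for survival, stood at 86.6 ± 5.09 CPM in NCD (counts scaled to library size; SD, n = 2), while Ins2, an insulin gene of beta cells, stood at 9836 ± 84.6. Macrophage transcripts were thus present in libraries with far more endocrine RNA. In such mixed RNA, fewer cells of a type and less RNA per cell cannot be told apart. Multiples of 4 occurred 1.64 to 1.74 times as often as neighbouring values among low counts, so how many fragments a count stands for is unsure.

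With HFD, 5 of the 10 genes rose and 4 fell. Cx3cl1 rose 4.65-fold and Pros1 2.27-fold, with smaller rises of Axl, Gas6 and Mertk. Cx3cr1 fell to 0.262 of its NCD level, whereas Lyz2, Mpeg1 and Cd68 fell to between 0.736 and 0.834 of theirs. Adgre1 did not pass the test. A gene was called at a Benjamini-Hochberg adjusted p under 0.05 in edgeR's quasi-likelihood test over all genes. By this rule 17.9% of all genes tested were higher and 14.5% were lower (3860 and 3123 genes, 32.4% together). In each of the 10 genes the 2 diets did not overlap, which was also so in 67.7% of all genes tested. The median log2 change of the 10 genes was 0.04, beside 0.00 for all genes tested.

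**Figure D1:**
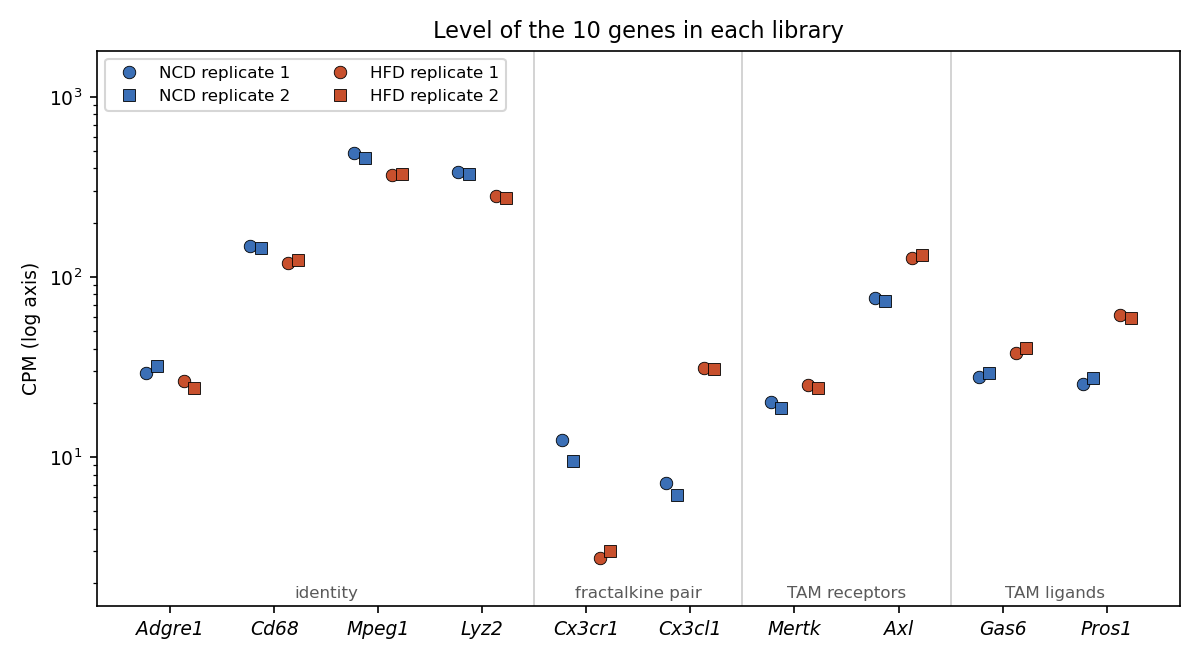
Level of each gene in CPM on a log axis, with 1 point per library (blue NCD, red HFD, circle replicate 1, square replicate 2), grouped by role. The diets do not overlap for any of the 10 genes, and the widest gaps are those of Cx3cr1, at 12.5 and 9.51 in NCD against 2.75 and 3.003 in HFD, and Cx3cl1, at 7.20 and 6.18 against 31.2 and 31.0.

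Among the identity genes, Adgre1 (chr17:57358691-57483527, GRCm38, + strand) encodes the adhesion receptor F4/80. Its level was 29.5 and 31.9 CPM in the NCD libraries and 26.4 and 24.3 in the HFD libraries. Both HFD values lay below both NCD values, but the gap between the diets was little wider than the spread within them. The log2 change was -0.27 ± 0.0911 (SE), and edgeR's adjusted p was 0.0726. DESeq2's Wald test on the same counts called Adgre1 lower (DESeq2 adjusted p = 0.0180).

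Cd68 (chr11:69664213-69666153, - strand) encodes a glycoprotein of lysosomes and endosomes that serves as a general marker of macrophages. It stood at 147.6 and 144.7 CPM in NCD against 119.8 and 124.1 in HFD, so the diets did not overlap. The fall was 0.26 on the log2 scale, with a 95% interval of -0.39 to -0.14 (edgeR adjusted p = 0.0129). The call ended when NCD replicate 1 (edgeR adjusted p = 0.0530) or HFD replicate 1 (0.0682) was left out.

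Mpeg1 (chr19:12460779-12465283, + strand) encodes perforin-2, a pore-forming protein that phagocytes direct at engulfed bacteria. Its levels were 487.1 and 458.4 CPM in NCD against 370.1 and 373.7 in HFD. Both HFD libraries were low and close together. The log2 change was -0.35 ± 0.0446 (SE; edgeR adjusted p = 0.00345).

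Lyz2 (chr10:117277331-117282321, - strand) encodes lysozyme M, which digests bacterial cell walls and is made by macrophages, monocytes and neutrophils. It stood at 381.4 and 372.4 CPM in NCD against 279.7 and 275.2 in HFD. Again the libraries of a diet were alike and the diets apart, with a log2 change of -0.44 ± 0.0394 (SE; edgeR adjusted p = 0.000998). Its near-identical neighbour Lyz1, mainly a product of Paneth cells in the gut, moved the other way, from 1.49 ± 0.721 to 6.90 ± 0.0416 CPM (edgeR adjusted p = 0.00745). Reads of such a pair can be assigned to either gene. Lyz1 had 0.525 and 0.264 counts per 100 Lyz2 counts in NCD and 2.46 and 2.52 in HFD, and the sum of both genes still fell by 0.41 on the log2 scale (edgeR adjusted p = 0.00127), a sum that was tried after the values were seen. Neutrophils are another source of Lyz2. Of 10 neutrophil markers, S100a8, Retnlg, Ly6g, Ngp and Elane had no count in any library, 3 more stood at 0.582 CPM or less, and 2 had enough counts to be tested. Mmp8 rose from 4.01 ± 0.354 to 7.99 ± 1.11 CPM (edgeR adjusted p = 0.0117, lost without HFD replicate 1 at 0.0534), and Csf3r, which macrophages also express, was 9.39 ± 1.46 in NCD against 7.47 ± 0.925 in HFD (edgeR adjusted p = 0.225). The summed level of all 10 was 14.7 and 12.2 CPM in NCD against 16.2 and 15.6 in HFD. The part of neutrophils in the fall of Lyz2 was not tested.

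The sum of these 4 genes was 1046 and 1007 CPM in the NCD libraries against 796 and 797 in the HFD libraries. Set against Adgre1, the levels of Cd68, Mpeg1 and Lyz2 changed little. The change of Adgre1 had the largest SE of these genes, and ratios among Cd68, Mpeg1 and Lyz2 themselves were not taken. Per 100 counts of Adgre1 there were 501 and 454 counts of Cd68 in NCD and 453 and 511 in HFD, and for Mpeg1 1652 and 1438 in NCD and 1400 and 1537 in HFD, so that both ratios overlapped between the diets. For Lyz2 the ratio was 1293 and 1168 in NCD and 1058 and 1132 in HFD, which did not overlap. Exact permutation tests on such ratios cannot go below a two-sided p of 0.333 with 2 libraries against 2, and none was run.

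Cx3cr1 and Cx3cl1, the fractalkine receptor and its ligand, moved in opposite directions and furthest of the 10 genes. Cx3cr1 (chr9:119901616-120069879, - strand) had 804 and 591 counts in NCD and 170 and 170 in HFD, or 12.5 and 9.51 against 2.75 and 3.003 CPM. The lower NCD library was still several-fold above both HFD libraries. The log2 change was -1.93 ± 0.197 (SE), with a 95% interval of -2.43 to -1.44 (edgeR adjusted p = 0.00153). This fall was larger than 98.6% of all falls called in the comparison. Cx3cr1 shares 78 exon bases with the antisense gene Gm33858, and reads of the pair cannot be told apart here because the strand setting of the counting is not given.

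Cx3cr1 was also lower relative to other macrophage genes. Per 100 Adgre1 counts there were 42.3 and 29.8 counts of Cx3cr1 in NCD and 10.4 and 12.4 in HFD. Per 100 Csf1r counts there were 13.8 and 11.5 in NCD and 2.71 and 3.01 in HFD. Both ratios were low in both HFD libraries and did not overlap between the diets. Monocytes and natural killer cells also carry the receptor. The summed level of 8 monocyte markers was 16.4 CPM in each NCD library and 119 and 121 CPM in HFD, opposite to Cx3cr1, although most of that sum was Vcan, which fibroblasts also make. The natural killer genes Ncr1 and Klrb1c had no count in NCD and at most 0.371 CPM in HFD. The part of these cells in the fall of Cx3cr1 was not tested.

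Cx3cl1 (chr8:94772009-94782427, + strand) had 464 and 384 counts in NCD and 1932 and 1754 in HFD. In CPM these are 7.20 and 6.18 against 31.2 and 31.0, so the HFD libraries were nearly identical and far above both NCD libraries. The log2 change was 2.22 ± 0.119 (SE), with a 95% interval of 1.92 to 2.52 (edgeR adjusted p = 0.000218). Of all rises called, 73.7% were smaller. Per kilobase of annotated exon, the level of the ligand was 0.662 and 0.745 times that of the receptor in NCD and 13.03 and 11.8 times that of the receptor in HFD.

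Markers of endothelial and ductal cells, which can make fractalkine, moved in both directions. Other cells may make it too, and nerve cells have no list here. Among the other lists, fibroblast and stellate cell markers summed to 119 CPM in each NCD library against 1239 and 1275 in HFD. Beta cell markers summed to 17340 and 17810 CPM in NCD against 13510 and 14160 in HFD. The summed level of 10 endothelial markers was 1849 and 1873 CPM in NCD against 2054 and 2071 in HFD, and 5 of them rose and 2 fell. Cdh5, encoding VE-cadherin, rose from 292 ± 1.95 to 449 ± 7.99 CPM (edgeR adjusted p = 0.000317), while Flt1, a VEGF receptor, fell from 393 ± 7.72 to 348 ± 6.73 (edgeR adjusted p = 0.0233, lost without any 1 of NCD replicate 1, HFD replicate 1 and HFD replicate 2, at 0.0820, 0.0713 and 0.108). The clotting factor carrier gene Vwf stood at 14.8 ± 1.66 CPM in NCD and rose to 71.4 ± 0.190 (edgeR adjusted p = 0.000117). Its log2 change of 2.27 was the largest of the 10 endothelial markers, whose median was 0.22. Of 6 ductal markers 3 rose (Krt19, Sox9 and Muc1, with log2 changes of 1.63, 2.21 and 0.62), 1 fell (the keratin gene Krt7, from 445 ± 4.04 to 241 ± 13.3) and 2 did not pass, with a median log2 change of 1.10. Their sum, most of it Krt7, was 487 and 495 CPM in NCD against 316 and 336 in HFD. The part of any of these cells in the rise of Cx3cl1 was not tested.

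The promoters of the ligand and the receptor, the genes with the largest rise and the largest fall of the 10, are shown because they differ in base composition. Both are RefSeq windows of 300 bases on GRCm38.p6, from 250 bases before to 50 bases after an annotated start, with CpG pairs in capitals. Of the 10 genes 9 had such a window. The Cx3cl1 window is chr8:94771930-94772229 on the + strand, and the Cx3cr1 window is chr9:120068247-120068546 on the - strand.
Cx3cl1: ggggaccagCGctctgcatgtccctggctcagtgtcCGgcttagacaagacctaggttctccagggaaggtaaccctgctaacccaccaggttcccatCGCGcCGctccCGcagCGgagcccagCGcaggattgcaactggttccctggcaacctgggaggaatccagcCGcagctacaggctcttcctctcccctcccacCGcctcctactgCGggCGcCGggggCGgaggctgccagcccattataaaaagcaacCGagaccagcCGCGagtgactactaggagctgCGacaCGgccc
Cx3cr1: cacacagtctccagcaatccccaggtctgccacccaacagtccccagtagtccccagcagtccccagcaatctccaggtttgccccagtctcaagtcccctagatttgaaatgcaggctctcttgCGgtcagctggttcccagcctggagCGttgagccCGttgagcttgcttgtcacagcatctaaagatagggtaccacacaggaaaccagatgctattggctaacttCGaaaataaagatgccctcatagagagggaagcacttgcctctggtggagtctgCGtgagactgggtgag
The Cx3cl1 window holds 19 CpG pairs and the Cx3cr1 window 5, beside a median of 7 over 32851 RefSeq windows of this length. Among the other windows, those of Lyz2, Mpeg1, Cd68, Axl, Mertk, Gas6 and Pros1 hold 1, 2, 4, 6, 14, 17 and 21 CpG pairs. A link between base composition and the change with diet was not tested. Of the kappaB motif, the site of NF-kappaB factors, only the form GGGNNTTCC was searched, on both strands. Longer or otherwise spaced forms of the site were not searched. The form GGGNNTTCC was in none of the 9 windows and in 5.82% of all windows, which says only that these letters are not there.

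The TAM receptors and their ligands were all higher in HFD, by 1.26-fold to 2.27-fold. Axl (chr7:25757273-25788705, - strand), a receptor kinase that macrophages, endothelial cells and fibroblasts carry and that inflammation induces, stood at 76.6 and 73.5 CPM in NCD against 126.9 and 133.2 in HFD. Both HFD libraries were well above both NCD libraries. The log2 change was 0.79 ± 0.0574 (SE), with a 95% interval of 0.65 to 0.94 (edgeR adjusted p = 0.000516).

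Mertk (chr2:128698956-128802894, + strand), the kinase most tied to resident macrophages and to quiet clearance of corpses, stood at 20.2 and 18.8 CPM in NCD against 25.1 and 24.1 in HFD. The diets did not overlap, but the rise was small, at 0.33 ± 0.0936 (SE) on the log2 scale, with a 95% interval of 0.10 to 0.57. It passed narrowly (edgeR adjusted p = 0.0444). The call was lost when any 1 library was left out (edgeR adjusted p = 0.0720 and 0.162 for the NCD replicates 1 and 2, 0.146 and 0.100 for those of HFD), without the filter on low counts (0.0674) and with a replicate block (0.0714).

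The intervals of Axl and Mertk did not overlap. Per kilobase of exon, the level of Axl was 3.26 and 3.38 times that of Mertk in NCD and 4.36 and 4.77 times in HFD, so both HFD libraries had the higher ratio. The ratio of Mertk to other macrophage genes depended on the gene it was set against. There were 68.6 and 58.8 Mertk counts per 100 Adgre1 counts in NCD and 94.8 and 99.1 in HFD, and 22.4 and 22.6 Mertk counts per 100 Csf1r counts in NCD and 24.7 and 24.1 in HFD. Both ratios were higher in both HFD libraries, the second by little. For Axl the ratio to Adgre1 was 260 and 231 in NCD and 480 and 548 in HFD, and that to Csf1r was 85.0 and 88.6 in NCD and 125 and 133 in HFD. Csf1r itself was 86.6 ± 5.09 CPM in NCD against 101 ± 1.10 in HFD (edgeR adjusted p = 0.0489, lost when NCD replicate 2, HFD replicate 1 or HFD replicate 2 was left out, at 0.175, 0.139 and 0.120, and, with a block or without the filter, at 0.0600 and 0.0735).

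Gas6 (chr8:13465374-13494490, - strand), whose product binds all TAM receptors, stood at 28 and 29.2 CPM in NCD against 37.7 and 40.2 in HFD. The HFD libraries were both higher, and the log2 change was 0.45 ± 0.0780 (SE; edgeR adjusted p = 0.00965). Pros1 (chr16:62854307-62929346, + strand), encoding protein S, an anticoagulant that also binds MERTK and TYRO3, stood at 25.4 and 27.5 CPM in NCD against 61.1 and 59.1 in HFD. Its log2 change was 1.18 ± 0.0752 (SE), with a 95% interval of 1.00 to 1.37 (edgeR adjusted p = 0.000353), and this interval did not overlap that of Gas6, which was 0.25 to 0.64. Per kilobase of exon, the level of Pros1 was 0.566 and 0.588 times that of Gas6 in NCD and 1.01 and 0.915 times in HFD. Gas6 shares 34 exon bases with Tmem255b on the opposite strand.

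**Figure D2:**
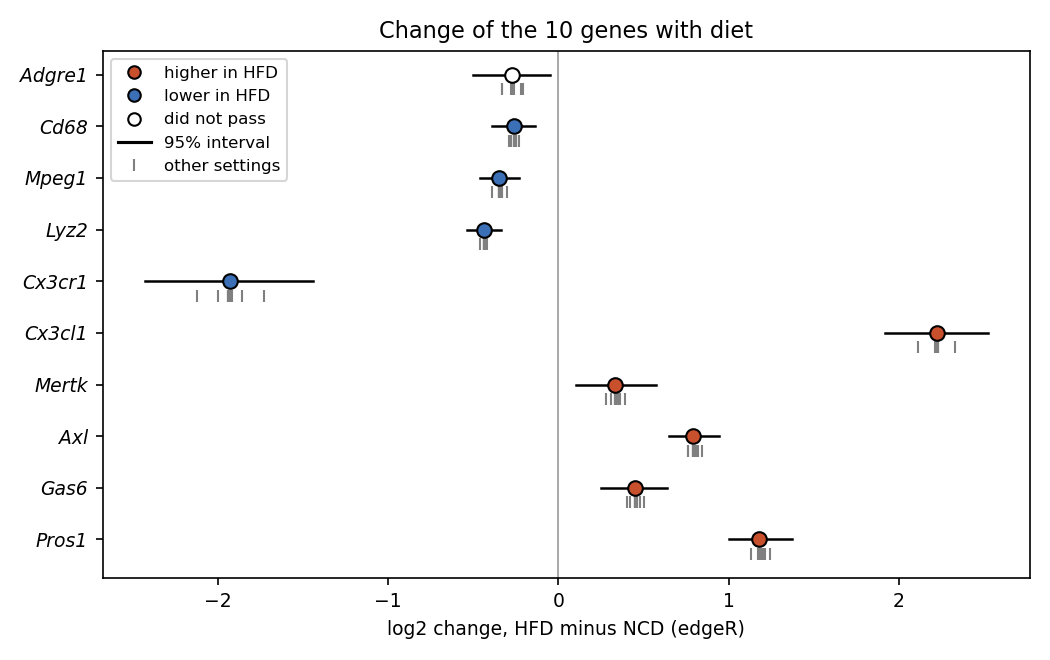
The x axis is the log2 change, HFD minus NCD, from edgeR for each of the 10 genes. Points are estimates, black bars 95% intervals before adjustment over genes, and grey ticks the same change under 12 other settings. No setting turned a direction, and the bars of Cx3cr1 and Cx3cl1 lie furthest from 0.

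Fibroblasts, which make Gas6, Pros1 and Axl, had markers that rose far more than these genes. All 8 fibroblast and stellate cell markers rose, and their sum went from 119 CPM in each NCD library to 1239 and 1275 in the HFD libraries, with Col3a1, a fibrillar collagen, at 22.3 ± 0.126 and 532 ± 7.28 CPM. Lymphocyte markers rose too, with 6 of 6 tested B cell markers and 7 of 9 tested T and NK cell markers called higher. The sum of 6 B cell markers went from 24.9 and 24.4 to 161 and 166 CPM, and that of 11 T and NK cell markers from 10.6 and 10.3 to 66.5 and 62.2 CPM. Dendritic cell markers, 7 genes of which 3 of 5 tested rose, summed to 19.3 and 17.9 CPM in NCD against 137 and 116 in HFD, most of it Ccr7, at 92.2 ± 15.0 CPM in HFD. In the same list Clec9a and Siglech did not pass (edgeR adjusted p = 0.121 and 0.449), and Xcr1 and Cd209a had too few counts to be tested. The sum is thus mainly a reading of Ccr7. The part of these cells in the changes of Axl, Gas6, Pros1 and Mertk was not tested.

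**Figure D3:**
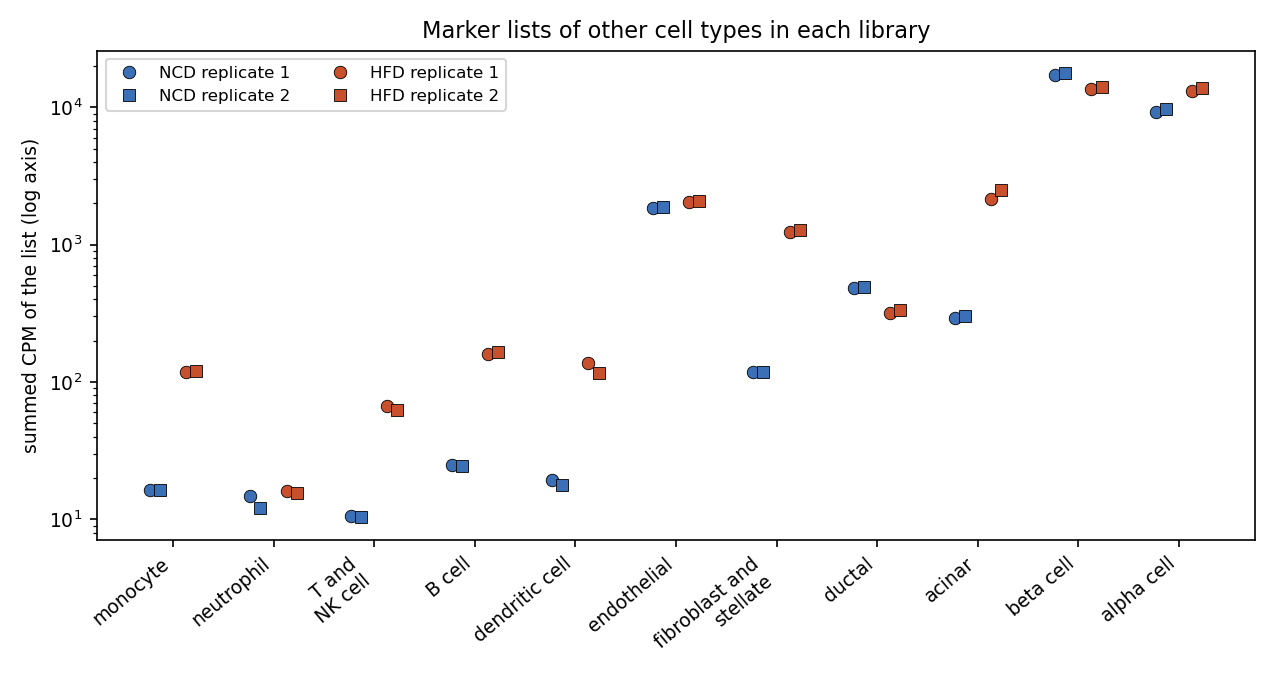
Summed CPM of each marker list on a log axis, with 1 point per library (blue NCD, red HFD). Fibroblast, acinar, B cell, T and NK cell, dendritic and monocyte lists are several-fold higher in both HFD libraries, the neutrophil and endothelial lists are nearly level, and the sums of the ductal list, through Krt7 alone, and of the beta cell list are lower. Most of the dendritic sum in HFD is Ccr7.

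Levels per kilobase of annotated exon (CPM per kb) gave the order of the 10 genes. In NCD, Lyz2 came first at 286, followed by Cd68 at 116, Mpeg1 at 109, Axl at 14.9, Gas6 at 11.2, Adgre1 at 9.48, Pros1 at 6.47, Mertk at 4.495, Cx3cr1 at 2.44 and Cx3cl1 at 1.70, and no neighbours in this order overlapped between libraries. In HFD the first 5 kept their places, and Cx3cr1, at 0.638, came last. Pros1, at 14.7, then stood beside Gas6, at 15.3, and Cx3cl1, at 7.91, beside Adgre1, at 7.84, and within each of these pairs the libraries overlapped.

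Other genes of the pathway were read from 6 lists chosen with earlier results of these data known. The counts of each list are to be read beside the shares over all genes tested, 17.9% higher and 14.5% lower. Of 27 further macrophage and myeloid identity genes 25 were tested, of which 9 rose, 6 fell and 10 did not pass, with a median log2 change of 0.18. The largest fall was that of Sirpa, the inhibitory receptor that reads the do-not-eat-me signal CD47 and that nerve cells also carry, from 345 ± 17.2 to 122 ± 3.56 CPM (edgeR adjusted p = 7.8e-05). Itgax, encoding CD11c, which macrophages inside islets carry, fell from 101 ± 0.276 to 53.4 ± 5.64 (edgeR adjusted p = 0.00115). Relative to Adgre1 it was lower as well, with 343 and 315 counts per 100 Adgre1 counts in NCD and 217 and 203 in HFD. Itgam, encoding CD11b of macrophages, monocytes and granulocytes, rose from 20.2 ± 1.33 to 53.9 ± 6.54 (edgeR adjusted p = 0.000657), as did Cd14, the lipopolysaccharide co-receptor, from 32.3 ± 3.51 to 104 ± 9.30 (edgeR adjusted p = 0.000341). The scavenger receptor gene Marco rose from 1.67 ± 0.0210 to 11.9 ± 2.46 (edgeR adjusted p = 0.000555), and Laptm5, a lysosomal protein of all leukocytes, from 95.9 ± 1.93 to 151 ± 11.0 (edgeR adjusted p = 0.00156). Acinar markers, of tissue outside the islets, summed to 292 and 304 CPM in NCD against 2162 and 2489 in HFD. The part of macrophages outside the islets in these changes was not tested.

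Of 22 other phosphatidylserine receptors and bridging proteins 20 were tested, of which 8 rose, 5 fell and 7 did not pass, with a median log2 change of 0.21. Tyro3, the remaining TAM receptor, rose from 4.14 ± 0.284 to 8.32 ± 0.896 CPM (edgeR adjusted p = 0.00852). Mfge8, a bridge between phosphatidylserine and integrins, rose from 41.7 ± 0.987 to 125 ± 19.3 (edgeR adjusted p = 0.000495). Its integrin partners split, with Itgb3 higher, from 32.9 ± 0.706 to 56.0 ± 1.01 (edgeR adjusted p = 0.000893), and Itgb5 lower, from 152 ± 1.98 to 114 ± 2.82 (edgeR adjusted p = 0.00270). Lrp1, a large endocytic receptor that fibroblasts also carry, rose from 332 ± 26.9 to 619 ± 25.3 (edgeR adjusted p = 0.000542), and Thbs1, encoding the bridging protein thrombospondin-1, from 411 ± 5.21 to 584 ± 30.6 (edgeR adjusted p = 0.00120). C1qc, a chain of the complement protein C1q that coats corpses, fell from 71.9 ± 1.56 to 52.5 ± 1.46 (edgeR adjusted p = 0.00411). Timd4, the phosphatidylserine receptor TIM-4 of some resident macrophages, and Adgrb1 had too few counts to be tested. Without NCD replicate 1 and without HFD replicate 1 the number lower was 3 and 2.

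Engulfment signalling and phagosome maturation, 26 genes, held 6 that rose, 2 that fell and 18 that did not pass, with a median log2 change of 0.05. Over all genes tested 17.9% were higher and 14.5% lower, 32.4% together, so the calls in this list were about as frequent as elsewhere. Rac2, a small GTPase of blood cells, rose from 13.2 ± 0.331 to 53.6 ± 1.41 CPM (edgeR adjusted p = 8.94e-05), or 4.05-fold. Ptprc, the common leukocyte antigen CD45, rose 2.46-fold, from 53.7 ± 1.49 to 132 ± 2.86. The part of leukocytes in the rise of Rac2 was not tested. Dock1, the exchange factor that activates RAC1 during uptake, rose from 57.7 ± 1.42 to 95.7 ± 7.61 (edgeR adjusted p = 0.00161), and the adaptor gene Gulp1 from 1.67 ± 0.255 to 4.94 ± 0.264 (edgeR adjusted p = 0.00515). The small GTPase genes Rhog and Cdc42 rose by less, from 37.5 ± 1.44 to 54.3 ± 0.0656 (edgeR adjusted p = 0.00315) and from 322 ± 11.6 to 426 ± 6.29 (edgeR adjusted p = 0.00192). Vav1, an exchange factor of blood cells, rose from 30.1 ± 2.81 to 39.3 ± 3.19 (edgeR adjusted p = 0.0384). That call was not kept when NCD replicate 2 (edgeR adjusted p = 0.133) or HFD replicate 2 (0.150) was left out, without the filter on low counts (0.0632) and with a replicate block (0.0786). Both falls, of Mon1a and Atg5, lay near the threshold (edgeR adjusted p = 0.0461 and 0.0399), and neither was kept when any 1 of the 4 libraries was left out (0.0593 to 0.191 and 0.0773 to 0.155).

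Among 20 genes that handle engulfed cargo or respond to it, 10 rose, 3 fell and 7 did not pass, with a median log2 change of 0.28. Abcg1, a cholesterol exporter, fell from 135 ± 0.892 to 73.0 ± 2.94 CPM (edgeR adjusted p = 0.000342), and Pparg, a lipid-sensing transcription factor, from 52.3 ± 1.75 to 33.5 ± 1.19 (edgeR adjusted p = 0.00208). The remaining one was the cholesterol exporter gene Abca1, from 277 ± 19.9 to 201 ± 7.68 (edgeR adjusted p = 0.0046). The glucose transporter gene Slc2a1 rose from 95.9 ± 2.01 to 229 ± 5.58 (edgeR adjusted p = 9.4e-05), and the lactate transporter gene Slc16a1 from 10.5 ± 0.517 to 25.3 ± 0.791 (edgeR adjusted p = 0.000749). Tgfb1, a cytokine that macrophages release after taking up corpses and that many other cells make, rose from 66.4 ± 3.29 to 112 ± 0.493 (edgeR adjusted p = 0.000686), and Socs3, an inhibitor of cytokine signalling, from 61.7 ± 0.103 to 157 ± 3.38 (edgeR adjusted p = 9.1e-05).

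Of 16 genes of find-me, eat-me and do-not-eat-me signals 6 rose, 4 fell and 6 did not pass, with a median log2 change of 0.38. Cd47, the do-not-eat-me signal, was 181 ± 7.03 in NCD against 192 ± 8.25 CPM in HFD (edgeR adjusted p = 0.315), while its receptor gene Sirpa fell, as given above. Panx1, the channel that releases nucleotides from dying cells, rose from 11.6 ± 1.10 to 27.2 ± 1.36 (edgeR adjusted p = 0.00117), and S1pr1, a receptor for the lipid signal sphingosine 1-phosphate, from 111 ± 2.66 to 168 ± 7.89 (edgeR adjusted p = 0.00123). Cd24a rose from 128 ± 1.24 to 186 ± 7.48 (edgeR adjusted p = 0.00123) and Siglecg, its receptor, which B cells carry, from 1.94 ± 0.106 to 14.9 ± 2.17 (edgeR adjusted p = 0.000298). The part of B cells, whose markers rose, in the rise of Siglecg was not tested. Pecam1, an adhesion molecule of endothelium and leukocytes, rose from a mean of 271 to 446 ± 2.05 (edgeR adjusted p = 0.000301). Calr, encoding calreticulin, a chaperone of the endoplasmic reticulum that serves as an eat-me signal at the surface, fell from 1689 ± 74.0 to 1105 ± 1.70 (edgeR adjusted p = 0.000356). Without HFD replicate 1 the number lower was 2.

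Fractalkine and MERTK are cut from the cell surface by the proteases ADAM10 and ADAM17. Of 7 genes of these proteases, their partners and inhibitors 5 rose, none fell and 2 did not pass, with a median log2 change of 0.45 (edgeR and DESeq2 called none lower, and no fall had an unadjusted p under 0.05). Adam10 rose from 152 ± 4.32 to 186 ± 2.35 CPM (edgeR adjusted p = 0.00774). Adam17 was 89.0 ± 9.45 in NCD against 107 ± 2.71 in HFD (edgeR adjusted p = 0.0647) and was called higher by DESeq2 (DESeq2 adjusted p = 0.00403), without NCD replicate 1 (edgeR adjusted p = 0.0223) and with counts divided by 4 (0.0460). The genes of its partners rose, with Rhbdf1 from 13.6 ± 1.86 to 31.9 ± 0.463 (edgeR adjusted p = 0.00137), Rhbdf2 from 36.5 ± 3.08 to 49.9 ± 1.04 (edgeR adjusted p = 0.0118) and Frmd8 from 27.8 ± 1.86 to 48.0 ± 2.34 (edgeR adjusted p = 0.00182). Timp1, an inhibitor of metalloproteinases that fibroblasts make, rose from 4.35 ± 0.604 to 20.9 ± 0.122 (edgeR adjusted p = 0.000362).

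**Figure D4:**
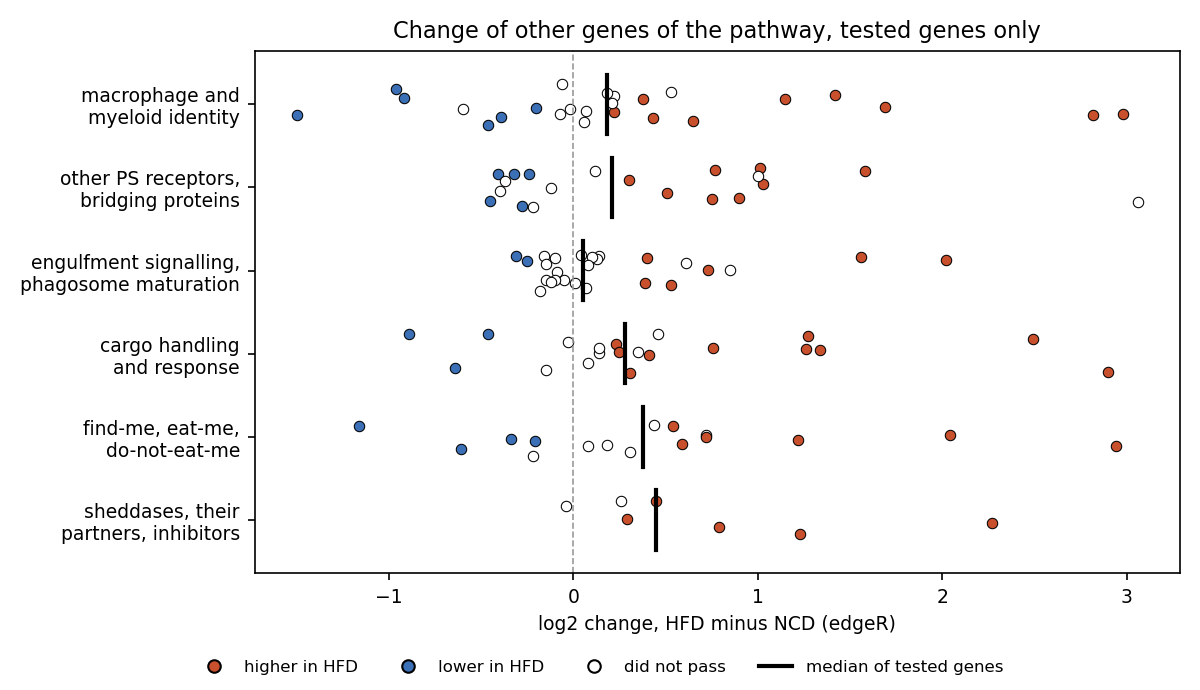
Each point is 1 tested gene of a list, placed by its log2 change, HFD minus NCD, with red for higher, blue for lower and white for not passing the test, spread vertically only for visibility. Black bars are list medians, which run from 0.05 for engulfment signalling to 0.45 for the proteases and their partners, and every list but that of the proteases holds both rises and falls.

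Genes with the most similar pattern over the 4 libraries were sought for each of the 10, by the distance between log2 CPM values centred on each gene's mean. The nearest to Cx3cr1 were Mapt, at a distance of 0.246, and Fam135b, at 0.260, and the nearest to Cx3cl1 were Ssc5d, at 0.0780, and Plac8, at 0.0934. For the others the nearest were Vhl and Naa35 (Adgre1), Ppp1r37 and Golga1 (Cd68), Mrpl57 and Atp11a (Mpeg1), Mapk8ip1 and Grk3 (Lyz2), Spty2d1 and Nras (Mertk), Btg1 and Arhgap25 (Axl), Ppp4r1 and Terf2 (Gas6), and Gpx8 and Ikzf3 (Pros1), at distances of 0.00703 to 0.0292. The 4 libraries allow no test of this likeness.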

How the data were processed

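Total RNA was sequenced from frozen islets after TRIzol extraction, with stranded KAPA libraries, per the labels' protocols. The sources used here do not say whether macrophages were separated from the rest of the islet. The authors deposited 1 table of whole-number counts per gene for each library. The submitters' processing notes name HISAT, featureCounts 1.5.0, DESeq 1.8.3 and GRCm38. The strand setting and the treatment of shared reads: not given in the sources used here. Symbols, places and exon lengths came from GENCODE M21 (GRCm38), which named 55240 of 55421 identifiers.

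Genes passing filterByExpr with a minimum count of 10 were scaled by TMM and tested with edgeR 4.0.16 (R 4.3.3), quasi-likelihood F test for diet, Benjamini-Hochberg adjustment over 21563 genes, and a call under 0.05. SE is the log2 change divided by the square root of F. Intervals are 95% and unadjusted. The NCD libraries totalled 64490097 and 62171973 counts, those of HFD 61855337 and 56740720. On simulated counts over 21563 genes the test recovered 0%, 22%, 62% and 98% of 50 genes each at 1.25-fold, 1.5-fold, 2-fold and 4-fold, with 13 calls among unchanged genes. Far fewer genes were changed there than the 6983 called in the data. The adjustment was then stricter, so these shares need not hold for this comparison.

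Alternatives were DESeq2 size factors, DESeq2 1.42.0, limma-voom (limma 3.58.1), no count filter, a block for replicate number, omission of each library in turn, library sizes without hormone, acinar and antigen receptor genes, counts divided by 4, and no TMM. Summing Lyz1 with Lyz2 was added after seeing the data. The members and lists were chosen with earlier results of these data known. From each pathway list the text names up to 6 genes with the smallest p and 8 that are always named (Tyro3, Csf1r, Itgax, Adam10, Adam17, Cd47, Sirpa, Mfge8). From each list of other cell types it names genes by highest mean level. It also names the 2 protein-coding genes nearest to each member in pattern (0.5 CPM added before log2, mean of at least 5 CPM). Lyz1, Ptprc, Abca1, Mon1a, Atg5, Vwf, Krt19, Sox9, Muc1, Clec9a, Siglech, untested genes and marker genes at or near 0 were named after their values were seen. Acinar and alpha cell lists were also summed. Acinar markers summed to 292 and 304 CPM in NCD against 2162 and 2489 in HFD, alpha cell markers to 9216 and 9666 against 13150 and 13820, and beta cell markers to 17340 and 17810 against 13510 and 14160.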

Additional observations from a re-analysis of the deposited data

How the results depend on the processing

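No direction of the 10 genes turned in any setting. Mpeg1, Lyz2, Cx3cr1, Cx3cl1, Axl, Gas6 and Pros1 stayed called in all 12 planned settings, with log2 changes of -0.39 to -0.30, -0.46 to -0.42, -2.12 to -1.73, 2.11 to 2.33, 0.76 to 0.84, 0.40 to 0.50 and 1.13 to 1.24. Leaving out 1 library gave 0.28 to 0.39 for Mertk and -0.29 to -0.23 for Cd68, whose calls were lost as given above. Mertk was also lost without the count filter (log2 change 0.33, edgeR adjusted p = 0.0674). Adgre1 gained a call only with DESeq2's Wald test (log2 change -0.27, DESeq2 adjusted p = 0.0180). Falls in engulfment signalling numbered 1 with DESeq2 size factors, 5 with DESeq2's Wald test, 0 without the filter and 0 to 1 with a library left out. With a library left out, falls numbered 2 to 5 among phosphatidylserine receptors and 2 to 4 among find-me signals. Why these counts moved was not tested.

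The replicate numbers do not show a pairing: the deviations of the first NCD and the first HFD library from their diet means had a correlation of -0.0246 across genes. With a replicate block 3252 genes were higher and 2583 lower, 4 of the 10 genes rose and 4 fell, Mertk was no longer called (log2 change 0.33, edgeR adjusted p = 0.0714), and falls in engulfment signalling numbered 1. With 2 libraries per diet small changes can be missed. How often cannot be read from the simulation, which changed far fewer genes than were called in the data.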
